A study of Mus musculus with 4 samples.

Results

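Levels are described here for 10 transcription factor genes of neural crest mesenchyme in sorted cells of the mouse aorta. The genes were Msx1, Msx2, Twist1, Twist2, Prrx1, Prrx2, Tfap2a, Tfap2b, Hand2 and Snai2. The rule names them as members of families known from cranial and cardiac neural crest and uses no measured value, but it was set with earlier results of these data known. All 10 were among the 32948 genes of the deposited table.

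Neural crest cells leave the embryonic neural tube after a change from an epithelial to a mesenchymal state, the epithelial-mesenchymal transition (EMT), and some of them become the smooth muscle of the outflow tract and aortic arch. Tfap2a and Tfap2b take part in specifying the crest, Snai2 represses epithelial genes as the cells leave, and the Msx, Twist, Prrx and Hand factors act later in the mesenchyme of the head, pharyngeal arches and outflow tract. BMP signals induce Msx genes, endothelin signalling through its receptor drives Hand2 in the arches, and Twist and Hand proteins bind DNA as dimers with the E proteins Tcf3, Tcf4 and Tcf12.

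The cells came from the ascending aorta and arch of Wnt1-Cre;Rosa26-mTmG mice of unstated age. The Rosa26-mTmG reporter gives every cell red tdTomato until Cre acts, and green GFP afterwards. Wnt1-Cre acts in the dorsal neural tube and neural crest, so GFP marks cells with a history of Wnt1-Cre at any time, and tdTomato marks all other cells. One suspension held 1 female sample and the other 2 pooled male samples, and each was sorted by fluorescence into GFP and tdTomato cells, which gave 4 libraries. All 4 carried both transgenes and no treatment was named. Each combination of sex and colour had 1 library, and sex cannot be told apart from suspension and pooling.

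Library totals ran from 10094326 to 13911281 estimated counts. The male GFP library stood apart. It held 9517 genes with at least 10 counts, against 12008 in female GFP and 15669 and 16227 in the tdTomato libraries. Levels are given in CPM, that is, counts relative to the scaled size of the library, and 3 counts were worth 0.203 to 0.323 CPM. The submitters labelled all cells as vascular smooth muscle, and the smooth muscle genes Acta2, Myl9 and Tagln stood at 2430 to 6807 CPM in every library. Markers of other cells were present too. The endothelial list (7 genes) summed to 12.8 and 15.9 CPM in the GFP libraries and to 232 and 382 CPM in the tdTomato libraries. In bulk samples, fewer cells of a type and less RNA per cell cannot be told apart.

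Prrx1 had the highest level of the 10 genes in 3 libraries and was nearly undetected in the remaining one. Its level was 248 CPM in female GFP cells, 262 CPM in female tdTomato cells and 208 CPM in male tdTomato cells, against 0.323 CPM (3 counts) in male GFP. Msx1 and Twist1 showed the converse, with their highest levels in male GFP. Of the 8 tested genes, Twist2 alone was at least 2-fold below tdTomato cells in the GFP cells of both pairs. Of all 15055 tested genes, 22.9% were so. None of the 8 tested genes passed the test over the pairs of GFP and tdTomato libraries, and Msx2 and Tfap2b were not tested.

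**Figure D1:**
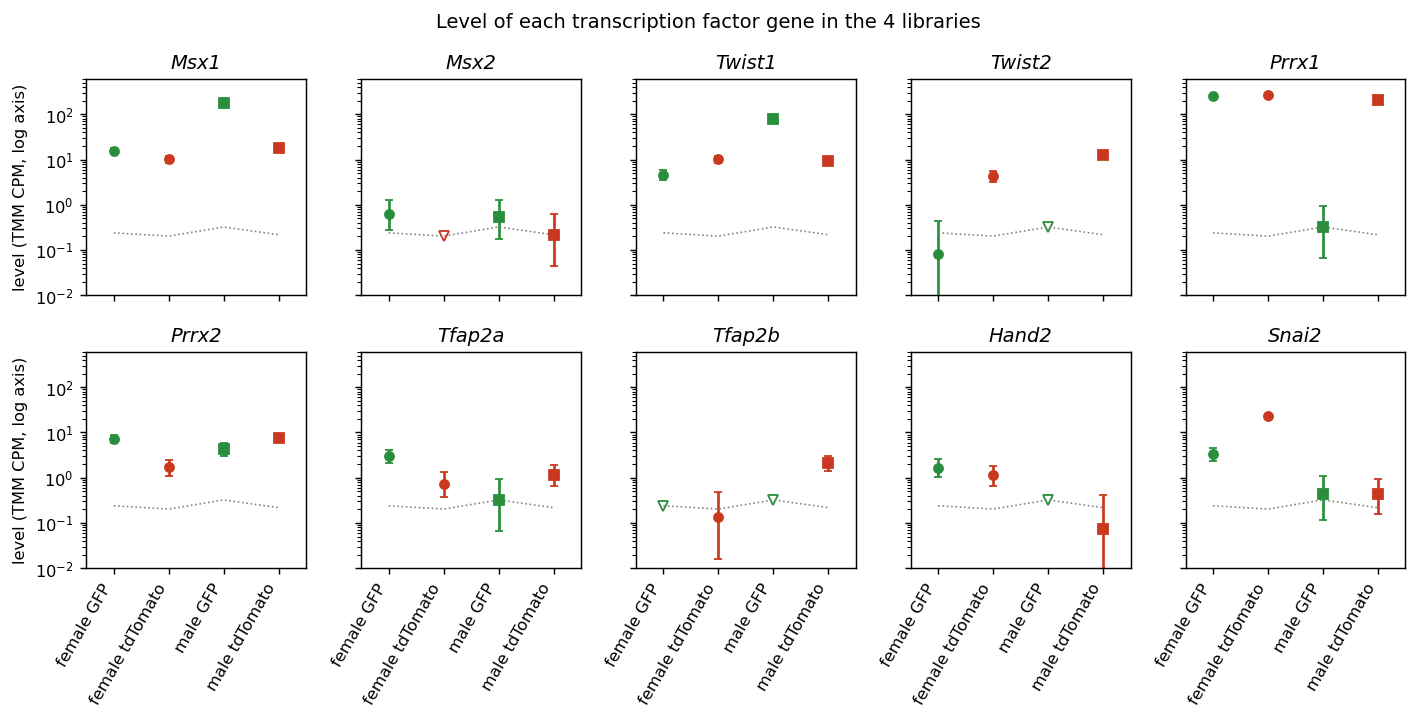
Level of each gene in TMM-scaled CPM (log axis) in the 4 libraries, green for GFP, red for tdTomato, circles for female and squares for male. Bars are exact 95% Poisson intervals of the counts, the dotted line is the worth of 3 counts in each library, and open triangles on it mark a count of 0. Prrx1 is near the dotted line in male GFP cells and at 208 to 262 CPM elsewhere, while Msx1 and Twist1 peak in male GFP.

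The 150 bases upstream of the start of transcription are shown for 4 genes picked after their values were seen. Msx1 and Twist1 peaked in male GFP, Prrx1 was near the floor there, and Twist2 was at or near 0 in both GFP libraries. The RefSeq promoter table (build GRCm38.p6, an earlier build than that of the counts) held 9 of the 10 genes, all but Snai2. Sequences run 5′ to 3′ on the strand of the gene. Capitals mark matches, on either strand, of CANNTG (the E-box read by Twist, Hand, E proteins and Snai2), TAATTA (a homeodomain core), GCCNNNGGC (bound by TFAP2 factors), CCAAT and TATAAA. The Msx1 window is chr5:37824586-37824735 on the minus strand and the Twist1 window is chr12:33957521-33957670 on the plus strand. The Prrx1 window is chr1:163313711-163313860 on the minus strand, moved up by 60 transcribed bases, and the Twist2 window is chr1:91801311-91801460 on the plus strand.
Msx1: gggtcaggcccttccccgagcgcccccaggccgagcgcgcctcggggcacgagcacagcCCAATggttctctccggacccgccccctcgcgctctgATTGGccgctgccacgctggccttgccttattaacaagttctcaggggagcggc
Twist1: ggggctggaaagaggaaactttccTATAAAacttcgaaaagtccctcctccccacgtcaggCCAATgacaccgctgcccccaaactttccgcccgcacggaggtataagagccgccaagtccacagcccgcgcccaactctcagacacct
Prrx1: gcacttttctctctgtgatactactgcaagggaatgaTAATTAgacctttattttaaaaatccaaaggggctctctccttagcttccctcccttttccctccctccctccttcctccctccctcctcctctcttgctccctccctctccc
Twist2: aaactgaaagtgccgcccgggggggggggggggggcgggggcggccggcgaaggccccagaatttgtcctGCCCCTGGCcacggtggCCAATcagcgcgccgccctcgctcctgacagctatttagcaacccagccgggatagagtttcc

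CCAAT was found in the windows of Msx1, Twist1 and Twist2 and not in that of Prrx1, and 24.5% of 32851 promoters of the same length hold it. TATAAA was found in the Twist1 window at bases 25 to 30, counted from the 5′ end, which is far from the start of transcription (7.57% of promoters). TAATTA was found in the Prrx1 window at bases 38 to 43 (2.73% of promoters). GCCNNNGGC was found in the Twist2 window (9.61% of promoters). CANNTG is in none of these 4 windows and in 47.7% of promoters. G and C made up 70% of the Msx1 window, 58% of that of Twist1, 50% of that of Prrx1 and 69% of that of Twist2. A match is a run of letters and no measured binding.

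Msx1 (ENSMUSG00000048450) encodes a homeodomain repressor induced by BMP signals. It measured 15.8 CPM in female GFP cells, 10.07 CPM in female tdTomato cells, 175 CPM in male GFP cells and 18.1 CPM in male tdTomato. Male GFP was far above the rest, while male tdTomato (95% counting interval 15.9 to 20.5 CPM) and female GFP (13.7 to 18.2 CPM) overlapped. In the female pair Msx1 was 1.57-fold higher in GFP cells, with a 95% counting interval of 1.27 to 1.96. In the male pair the excess in GFP cells was 9.66-fold (8.45 to 11.1). Over the 2 pairs the log2 ratio averaged 1.95 ± 1.85 (SD, n = 2), and edgeR's quasi-likelihood test gave an adjusted p of 1. Without the male GFP library, in a fit that also dropped the pairing by suspension, the edgeR log2 fold was 0.19. Between the sexes Msx1 was 11-fold higher in male than in female GFP and 1.8-fold higher in male than in female tdTomato.

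Msx2 (ENSMUSG00000021469), the paralog of Msx1, was close to the detection limit everywhere and was not tested. Its counts were 8 in female GFP cells, 0 in female tdTomato cells, 4.87 in male GFP cells and 2.65 in male tdTomato. The GFP library of each pair held the larger count. Msx2 was at least 3.16-fold higher in GFP cells of the female pair. The male pair gave a ratio of 2.47 with a counting interval of 0.48 to 15.9.

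Twist1 (ENSMUSG00000035799), a basic helix-loop-helix (bHLH) factor that keeps cranial mesenchyme undifferentiated, moved in opposite directions in the pairs. It measured 4.56 CPM in female GFP cells, 10.13 CPM in female tdTomato cells, 80.2 CPM in male GFP cells and 9.08 CPM in male tdTomato. The tdTomato libraries were alike within counting error, and the GFP libraries lay on either side of them. Twist1 was 2.22-fold lower in GFP cells of the female pair (1.63 to 3.07) but 8.83-fold higher in GFP cells of the male pair (7.30 to 10.8). The difference between male and female GFP was 17.6-fold (13.4 to 23.5). The log2 ratio averaged 0.998 ± 3.0 (SD, n = 2), with an adjusted p of 1 by edgeR. Without the male GFP library and the pairing by suspension, the edgeR log2 fold was -1.05.

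Twist2 (ENSMUSG00000007805), known in dermal and other mesenchyme, had 63 counts in female and 175 in male tdTomato cells, but 1 count in female GFP and 0 in male GFP. In CPM these were 0.080 and 0 in GFP and 4.26 and 12.7 in tdTomato. Both GFP libraries were at or near 0, and the tdTomato libraries did not overlap them. A level at least 2-fold lower in the GFP library of both pairs was common, at 22.9% of all 15055 tested genes. Twist2 was 53.2-fold lower in GFP cells of the female pair, with a wide counting interval (9.21 to 2134), and at least 39.4-fold lower in the male pair. The log2 ratio was -5.27 ± 1.51 (SD, n = 2), lower in GFP in 2 of 2 pairs. With so few counts in GFP its size depends on the prior count. In the female and male pairs it was -5.165 and -8.327 at a prior count of 0.5, and -2.530 and -4.088 at 10. The adjusted p was 0.577 by edgeR (unadjusted 0.0508), 0.0557 by DESeq2 and 0.253 by limma-voom, so the difference did not pass 0.05 with any of these tools. Of its 31-base words, 46% also occur in transcripts of Gm29100, an antisense gene with 1477 shared exon bases that is not analysed here. The library kit does not mark strand, so their reads cannot be told apart.

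Of the lists of cell type markers, endothelial, most macrophage and some fibroblast, melanocyte and pericyte genes showed the same split by colour as Twist2. All 7 endothelial markers were at least 2-fold lower in the GFP library of both pairs, with 3 counts or fewer for 6 of 7 in female GFP cells and for 5 of 7 in male GFP cells. Ptprb, a receptor phosphatase, led the list at 173 and 127 CPM in the tdTomato libraries against 0.16 and 0 CPM in GFP, followed by Pecam1 and Tek. Of the macrophage list, 4 of 6 genes (Mrc1, Cd68, Lyz2 and C1qa) were at least 2-fold lower in the GFP library of both pairs, with 0 to 2 counts in GFP and 20 to 388 in tdTomato. Mitf and Kit of the melanocyte list, Notch3 of the pericyte list and Pdgfra and Col1a1 of the fibroblast list met the same 2-fold rule. Pdgfra, a receptor of fibroblasts, stood at 0 CPM in female GFP cells, 69.3 CPM in female tdTomato cells, 0.43 CPM in male GFP cells and 62.5 CPM in male tdTomato. The fibroblast list as a whole (8 genes) summed to 4490 and 2328 CPM in GFP and 4626 and 5211 CPM in tdTomato. The part of these cells in the Twist2 result was not tested.

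Prrx1 (ENSMUSG00000026586) encodes a paired-related homeodomain protein of limb, craniofacial and vascular mesenchyme that also marks fibroblasts. Its counts were 3094 in female GFP cells, 3875 in female tdTomato cells, 3 in male GFP cells and 2855 in male tdTomato. The counting intervals of the female libraries overlapped narrowly, at 239 to 256 CPM and 254 to 270 CPM, male tdTomato lay slightly under them, and male GFP was at the floor of 3 counts. Prrx1 was 1.06-fold lower in GFP cells of the female pair (1.009 to 1.109) and 643-fold lower in the male pair (220 to 3120). Within GFP it was 767-fold lower in male than in female cells, and within tdTomato 1.26-fold lower. The log2 ratio averaged -4.42 ± 6.13 (SD, n = 2), with an adjusted p of 1 by edgeR. In the fit without the male GFP library and the pairing by suspension, the edgeR log2 fold was 0.10.

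The low Prrx1 count in male GFP was shared by many abundant genes. Among the 6813 genes with a level of 10 CPM or above in each tdTomato library, 23.7% had 3 counts or fewer in male GFP cells and 9.42% in female GFP cells. Prrx1 and Msx1 belonged to these genes, and 1 of the 2 was so low in male GFP cells and 0 of the 2 in female GFP. The shares were smaller among the 2506 genes at 50 CPM or more in each tdTomato library, which included Prrx1 and not Msx1. There 9.58% had 3 counts or fewer in male GFP cells and 1.4% in female GFP cells. Some fibroblast markers were also low in male GFP. Dcn measured 155 CPM in male GFP against 1940 to 2258 CPM elsewhere. Lum stood at 2.8 CPM against 394 to 722 CPM, and Dpt at 0 CPM against 85.8 to 243 CPM. Gsn was at 313 CPM against 766 to 1187 CPM, while Col3a1 and Pi16, of the same list, were highest in male GFP at 1710 and 89.3 CPM. Col1a1 stood at 58.1 CPM in male GFP, close to its 71.3 CPM in female GFP. The part of fibroblasts or of this library in the Prrx1 result was not tested.

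Prrx2 (ENSMUSG00000039476), which acts together with Prrx1 in facial skeleton, was far lower than Prrx1 in the 3 libraries that held Prrx1. It measured 7.28 CPM in female GFP cells, 1.69 CPM in female tdTomato cells, 4.30 CPM in male GFP cells and 7.70 CPM in male tdTomato. Female GFP and male tdTomato were alike within counting error, and male GFP kept 40 counts of Prrx2. Prrx2 was 4.31-fold higher in GFP cells of the female pair (2.74 to 7.01) and 1.79-fold lower in the male pair (1.23 to 2.65). The log2 ratio was 0.60 ± 2.00 (SD, n = 2), with an adjusted p of 1 by edgeR.

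Tfap2a (ENSMUSG00000021359), which specifies neural crest and is active in melanocytes, was low in every library. Its counts were 37.4 in female GFP cells, 10.6 in female tdTomato cells, 3.1 in male GFP cells and 15.9 in male tdTomato. Female GFP was highest, and the tdTomato libraries overlapped. Tfap2a was 3.98-fold higher in GFP cells of the female pair (1.99 to 8.66) and 3.6-fold lower in the male pair (1.03 to 19.3), with an adjusted p of 1 by edgeR. The overlapping antisense gene Gm26688, with 380 shared exon bases, stood at 16.2 CPM in female GFP cells and at 0 CPM in the other libraries. Reads of these genes cannot be told apart without strand. The melanocyte list (6 of 7 genes in the table) summed to 214 and 138 CPM in GFP and 95 and 86.9 CPM in tdTomato, and its members differed in direction. Dct measured 128 and 115 CPM in female and male GFP cells against 35.5 and 40.2 CPM in tdTomato, and Tyr 85.4 and 19.3 CPM against 38.4 and 18.8 CPM. Mitf, the melanocyte regulator, was instead higher in tdTomato (13.3 and 7.56 CPM) than in GFP cells (0.24 and 2.69 CPM), and so was Kit (7.77 and 20.1 CPM against 0 and 0.215 CPM). Tyrp1 and Pmel had 0 to 3.12 counts in all libraries. The part of this list in the Tfap2a values was not tested.

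Tfap2b (ENSMUSG00000025927), linked in humans to a persistent ductus arteriosus, had no count in either GFP library, 2.01 in female tdTomato and 29.1 in male tdTomato. It was thus detected beyond 3 counts in male tdTomato alone among these libraries. The limit of 3 counts used for a count of 0 was worth 0.24 CPM in the female GFP library and 0.323 CPM in the male one. Tfap2b was at least 6.53-fold lower in GFP in the male pair, and it was not tested. Within tdTomato it was 15.6-fold higher in male than in female cells (3.95 to 135).

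Hand2 (ENSMUSG00000038193), a bHLH factor of the outflow tract and pharyngeal arches, was low in female and nearly absent from male libraries. Its counts were 20.7 in female GFP and 16.8 in female tdTomato cells, and 0 in male GFP cells and 1.21 in male tdTomato. The female libraries overlapped, and neither male library exceeded 3 counts. Hand2 was lower in male than in female GFP cells by at least 5.21-fold and 15.8-fold lower in male tdTomato than in female tdTomato (2.48 to 661). The log2 ratio of male over female was -3.02 ± 0.73 (SD, n = 2), lower in 2 of 2 colours, with an unadjusted p of 0.0335 and an adjusted p of 1 by edgeR. The size of this ratio depends on the prior count. In GFP and tdTomato it was -5.436 and -3.402 at a prior count of 0.5, and -1.639 and -1.164 at 10. DESeq2 gave Hand2 no adjusted p. Hand2os1, which runs on the opposite strand and shares 461 exon bases with Hand2, measured 80.5 CPM in female GFP cells, 7.84 CPM in female tdTomato cells, 0.538 CPM in male GFP cells and 6.68 CPM in male tdTomato. Of the 31-base words of Hand2, 17.4% also occur in other genes, with Hand2os1 sharing the most. Without strand, reads of Hand2 and Hand2os1 cannot be told apart over the shared bases.

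Snai2 (ENSMUSG00000022676), a zinc finger repressor of epithelial genes also called Slug, was highest in female tdTomato. It measured 3.28 CPM in female GFP cells, 23.4 CPM in female tdTomato cells, 0.43 CPM in male GFP cells and 0.436 CPM in male tdTomato. The male libraries were alike and near the floor, at 4.32 and 5.84 counts. Snai2 was 7.13-fold lower in GFP cells of the female pair (5.15 to 10.11), while in the male pair the ratio was 1.014 with a counting interval of 0.24 to 4.88. Male cells were 7.63-fold lower than female cells in GFP (2.76 to 29.3) and 53.6-fold lower in tdTomato (24.4 to 147). The log2 ratio of male over female was -3.93 ± 1.95 (SD, n = 2), with an adjusted p of 1 by edgeR and 0.332 by DESeq2.

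Read per kilobase of exon, so that genes can be compared, Prrx1 led in 3 libraries and Msx1 and Twist1 in male GFP. Prrx1 held 60.2% of the summed level of the 10 genes in female GFP cells, 49.7% in female tdTomato and 48.1% in male tdTomato, and 0.0269% in male GFP. In male GFP, Msx1 (52.1%) and Twist1 (45.5%) together held nearly the whole sum. The second place differed between libraries. It went to Msx1 in female GFP (13.8%) and male tdTomato (15%), and to Snai2 in female tdTomato (24.3%). Twist2 held 10.3% in male tdTomato and 2.82% in female tdTomato. Not scaled by length, the CPM of the 10 genes summed to 284, 313, 261 and 259 in the order female GFP, then female tdTomato, then male GFP, then male tdTomato. With at least 10 counts, 7, 8, 3 and 7 of the genes were detected in the same order.

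**Figure D2:**
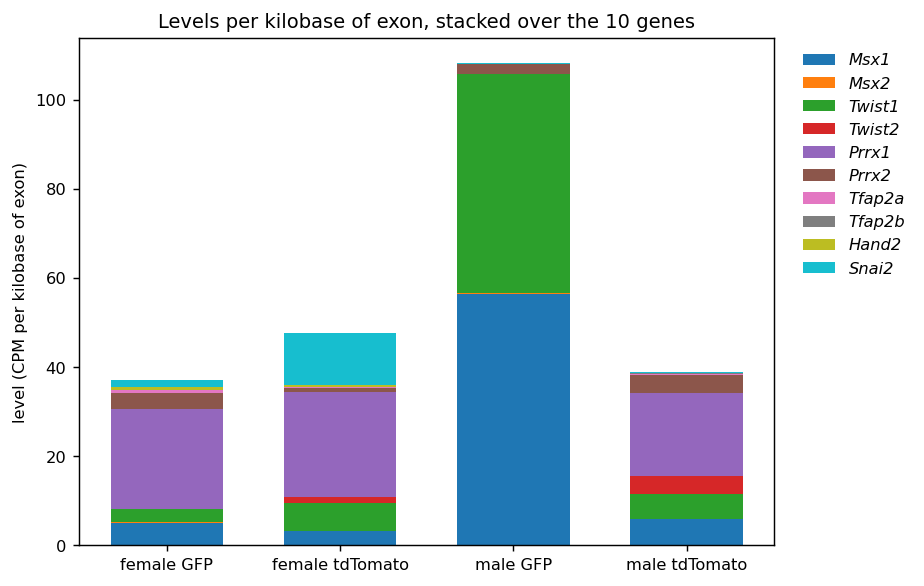
Stacked bars of CPM per kilobase of exon for the 10 genes in each library. Prrx1 (purple) fills 48.1% to 60.2% of 3 bars, and Msx1 (blue) and Twist1 (green) fill 52.1% and 45.5% of the male GFP bar.

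The comparison of GFP with tdTomato cells asks how cells with a neural crest history differ from the other cells of the same suspension. Of the 10 genes, 8 passed the filter on low counts and were tested. edgeR's quasi-likelihood test called 0 of 8, with 0% of 15055 genes called in all and a smallest adjusted p of 0.577. At an unadjusted p under 0.05 it held 0 of 8, where 8.62% of all tested genes (1298) stood. DESeq2 called 0 of the 7 with an adjusted p, against 7.82% of all genes (1109), and limma-voom called 0 of 8 and 0% of all genes. These p-values weigh the mean ratio of GFP over tdTomato against its scatter between only 2 suspensions, which differ in sex and pooling too. At this spread a lack of calls does not show equal levels.

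By size alone, the 10 genes did not share a direction. Counted at 2-fold, 1 of 8 genes (Twist2) was lower in the GFP library of both pairs, and 22.9% of all tested genes were so. In the GFP library of both pairs 0 of 8 were higher, against 5.17% of all. Twist1 was lower in the female and higher in the male pair (7.75% of all), and Tfap2a was higher in the female and lower in the male pair (11.5% of all). Within the female pair, 3 of 8 were lower in GFP (Twist1, Twist2 and Snai2, 37.8% of all) and 2 of 8 higher (Prrx2 and Tfap2a, 22% of all). Within the male pair, 3 of 8 were lower (Twist2, Prrx1 and Tfap2a, 50% of all) and 2 of 8 higher (Msx1 and Twist1, 21.5% of all). In the female pair the median log2 ratio was 0.21 over the 8 and -0.269 over all tested genes. In the male pair it was -0.68 over the 8 and -0.998 over all. Shares of 8 genes this near to those of all genes are no result about these genes.

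**Figure D3:**
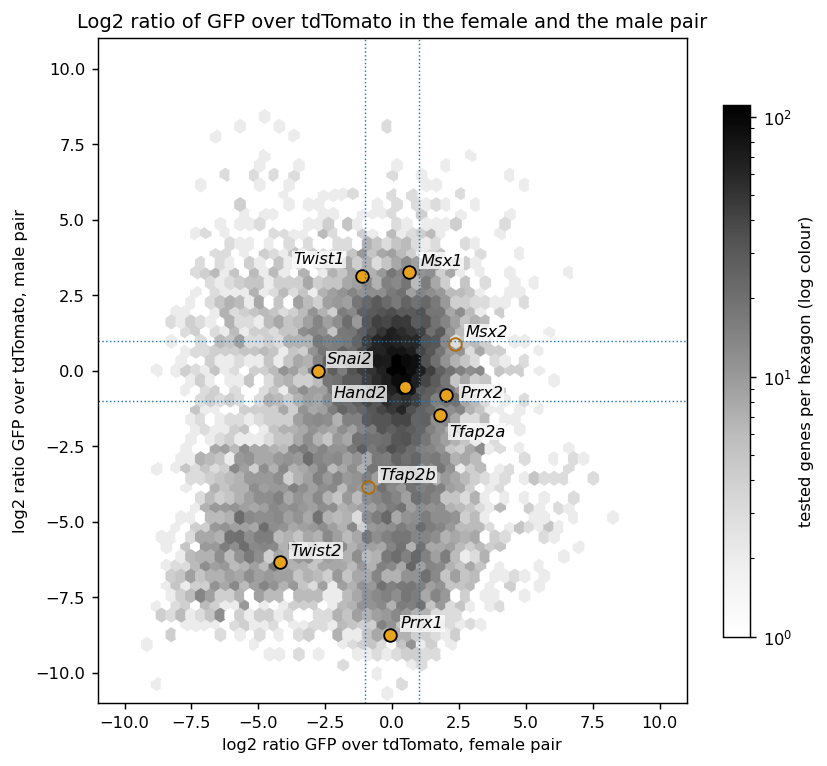
Log2 ratio of GFP over tdTomato (prior count 2) in the female pair (x axis) and the male pair (y axis). Grey hexagons count all 15055 tested genes, orange points are the 8 tested genes and open circles Msx2 and Tfap2b, and dotted lines mark 2-fold. Twist2 is the point at the lower left, Prrx1 lies at the bottom near 0 on the x axis, and Msx1 and Twist1 lie at the top.

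Male against female cells was the other comparison, with sex, suspension and pooling as a single term. Hand2 and Snai2 were at least 2-fold lower in male cells in both colours, which is 2 of 8 genes against 10.3% of all tested genes, and 0 of 8 were higher in both (6.28% of all). edgeR called 0 of 8 and 0% of all genes, and at an unadjusted p under 0.05 it held 1 of 8 (Hand2) against 1.74% of all (262 genes). DESeq2 called 0 of 6 with an adjusted p, against 0.966% of all genes, and limma-voom called 0 of 8 and 0% of all.

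Genes that work with these factors were read in 7 lists of 70 genes, of which 54 were in the table and 33 were tested. The others are not analysed here. edgeR called 0 of the 33. By edgeR 5 of 33 had an unadjusted p under 0.05, where 8.62% of all tested genes did. DESeq2 called 3 of 30, against 7.82% of all genes, namely Tcf12, Bmp4 and Cdh11, each lower in GFP. At 2-fold, 8 of 33 were lower in the GFP library of both pairs and 1 of 33 was higher, near the 22.9% and 5.17% of all tested genes. A further 4 of 33, among them Snai1, Osr1 and Krt18, were higher in GFP cells of the female pair and lower in the male pair, near the 11.5% of all tested genes.

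The bHLH partners split. Tcf12, an E protein that pairs with Twist and Hand proteins, measured 3.12 CPM in female GFP cells, 65.5 CPM in female tdTomato cells, 0.323 CPM in male GFP cells and 55.2 CPM in male tdTomato. Tcf3 had 1 and 0 counts in GFP and 73 and 46 in tdTomato. Both were thus low in GFP and higher in tdTomato in each pair, as Twist2 was. Tcf4, the most abundant E protein, measured 168, 191, 648 and 153 CPM in the same order and was 4.22-fold higher in GFP in the male pair. The Id genes, whose products hold E proteins away from DNA, were abundant in every library, with Id2 at 1426 to 2804 CPM, Id3 at 393 to 971 CPM and Id4 at 266 to 555 CPM. None of these 3 was 2-fold apart in the same direction in both pairs.

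The relatives and crest specifiers had their high and low values in different libraries. Snai1, the paralog of Snai2, had 543 counts in female GFP cells, 79 in female tdTomato cells, 0 in male GFP cells and 138 in male tdTomato cells. Snai3 had 1 count in all. Sox9, a crest and cartilage factor, measured 151 CPM in female GFP cells, 77.5 CPM in female tdTomato cells, 0.215 CPM in male GFP cells and 75.2 CPM in male tdTomato. It had the same gap in male GFP as Prrx1. Foxc2, a forkhead factor of arch arteries, measured 58.4, 42.9, 277 and 43.1 CPM in the same order, with its peak in male GFP, as for Msx1 and Twist1. Foxc1 differed less, at 182 to 277 CPM. Zeb2, a repressor of epithelial genes, was lower in the GFP library of both pairs, by 2.22-fold and 16.8-fold. Sox10 was at 0 counts in 3 libraries and 1 count in male GFP.

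Among regulators of arch mesenchyme, 14 of 21 were in the table and 4 were tested. Osr1 measured 69.1 CPM in female GFP cells, 14.4 CPM in female tdTomato cells, 0 CPM in male GFP cells and 5.89 CPM in male tdTomato. It was highest in female GFP and at 0 counts in male GFP. Dlx5, a target of BMP signals in the arches, had 0 and 1 counts in GFP and 74 and 60 in tdTomato. Dlx6, beside Dlx5 in the genome, had 154 counts in male GFP cells and 3.16 to 9.69 elsewhere, and was not tested.

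Upstream signals included 2 ligands that were lower and 1 receptor that was higher in the GFP library of both pairs. Bmp4, an inducer of Msx genes, had 1 count in female and 0 in male GFP cells, against 58 and 31.7 CPM in tdTomato. Edn1, which acts upstream of Hand2, was 31.3-fold lower in GFP cells of the female pair (18.8 to 56.3) and 2.9-fold lower in the male pair (2.49 to 3.38). The endothelin receptor gene Ednra had 239 counts in female tdTomato and 0 or 1 elsewhere. Bmpr1b, a BMP receptor, was 2.81-fold higher in GFP cells of the female pair (2.54 to 3.12) and 49.9-fold higher in those of the male pair (32.7 to 80). Bmpr2, Bmpr1a and Mef2c, the most abundant of this list, stood at 125 to 327 CPM in all libraries. Endothelial cells are a known source of Edn1, the endothelial markers were lower in GFP too, and their part in the Edn1 values was not tested.

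The genes that Snai and Twist factors act on in EMT gave no common picture. Cdh1 had 0 or 1 counts in every library. Krt18, an epithelial keratin, measured 46.2 CPM in female GFP cells, 2.36 CPM in female tdTomato cells, 0 CPM in male GFP cells and 9.01 CPM in male tdTomato, the order seen for Snai1. Cldn3, a tight junction gene, had 0 and 1 counts in GFP and 22 and 19 in tdTomato. Of the mesenchymal genes, Vim (3671 to 4880 CPM) and Fn1 (859 to 954 CPM) were abundant throughout, and Zeb1 ran from 23.8 CPM in female GFP cells to 167 CPM in male GFP cells. Cdh11, a mesenchymal cadherin, had 202 and 163 counts in tdTomato and none in either GFP library, at least 56.9-fold and 36.7-fold lower in GFP.

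**Figure D4:**
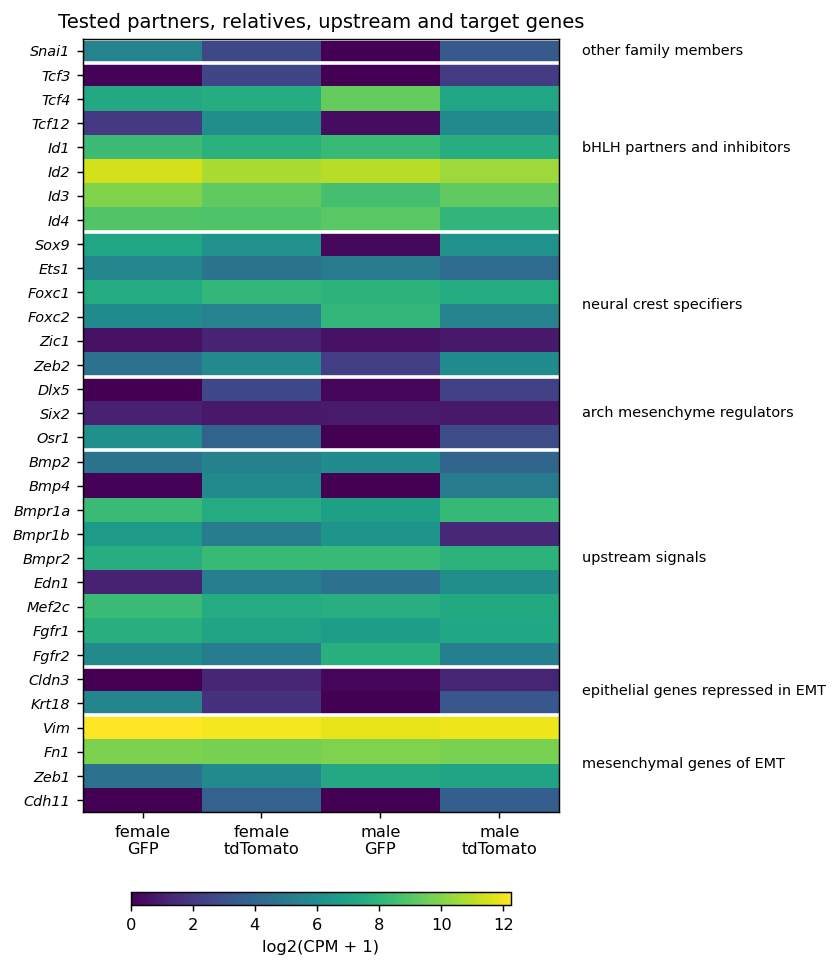
Heat map of log2(CPM + 1) for 32 of the 33 tested genes of the 7 lists in the 4 libraries, with dark blue for low and yellow for high levels. Tcf3, Tcf12, Dlx5, Bmp4, Cldn3 and Cdh11 are darker in both GFP columns, and Sox9, Snai1, Osr1 and Krt18 are darkest in male GFP.

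Genes with the most similar pattern over the 4 libraries were sought for the 3 genes of highest mean CPM, by Euclidean distance of centred log2 CPM among 8588 genes. Nearest to Prrx1 were Lsm7 (distance 0.21), Fbxo9 (0.21) and Eif2s3x (0.21), all at 0 CPM in male GFP cells and at 58.3 to 99.4 CPM elsewhere. Eif2s3x has a close Y-linked copy that can share reads. Near to Msx1 were Rlim (0.14) and Nckipsd (0.20), with Rlim at 404 CPM in male GFP cells and 23 to 37.2 CPM elsewhere. Nearest to Twist1 were Cd151 (0.09), Tom1l2 (0.19) and Ankrd16 (0.20), with Cd151 at 542 CPM in male GFP. Within a distance of 1 lay 142 genes for Prrx1, 63 for Msx1 and 124 for Twist1. With 4 libraries, such a likeness is a description.

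Other marker lists were read beside these levels. The Schwann cell list (7 genes) summed to 260 CPM in female GFP cells, 8.31 CPM in female tdTomato cells, 111 CPM in male GFP cells and 18.5 CPM in male tdTomato, with Cdh19 at 131 CPM in female GFP and 0 CPM elsewhere. The cartilage list (6 of 7 genes in the table) summed to 320, 25.9, 107 and 40.4 CPM in the same order, with Col9a1 (134 CPM) and Col2a1 (90.6 CPM) high in female GFP and Acan (67.4 CPM) in male GFP. The pericyte list (6 genes) was highest in male GFP at 2217 CPM, where Msx1 and Twist1 peaked, against 606 to 870 CPM elsewhere, and Rgs5 made up 1707 CPM of it. The pericyte genes differed in pattern. Cspg4 was also highest in male GFP, at 296 CPM. Abcc9 was lower in male GFP (96.9 CPM) than in female and male tdTomato (151 and 135 CPM). Notch3 was at 0 counts in both GFP libraries. The macrophage list (6 of 7 genes in the table) summed to 30.8, 27.6, 0.43 and 76.9 CPM, where Cd14 (24.3 CPM) and Csf1r (6.48 CPM) made up the female GFP value, the mesothelial list (2 of 4) to 2.48, 2.23, 12.5 and 2.62 CPM and the neuron list (4 of 6) to at most 1.15 CPM. The part of these cells in the levels of the transcription factors was not tested.

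**Figure D5:**
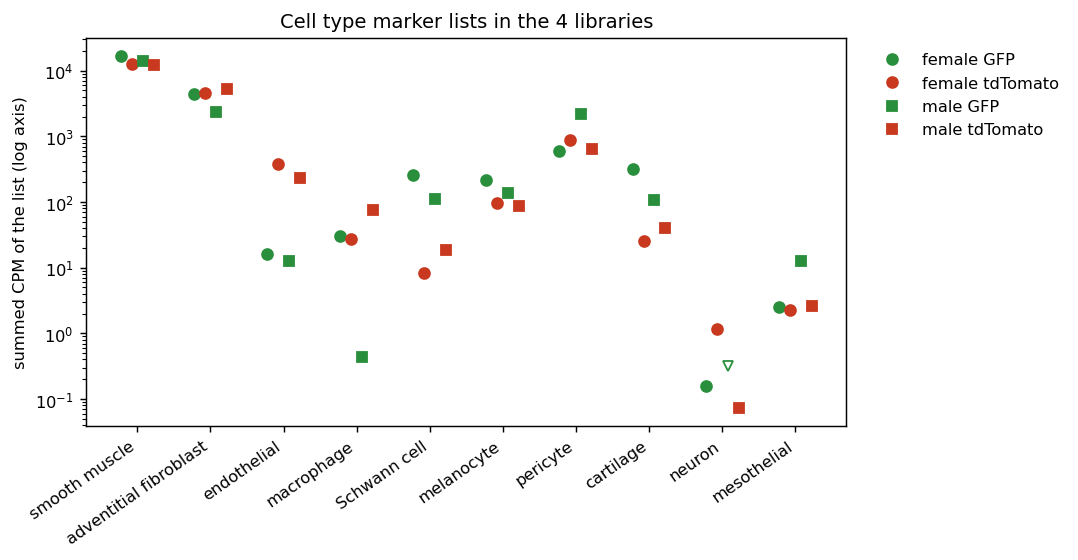
Summed CPM (log axis) of 10 marker lists in the 4 libraries, green for GFP, red for tdTomato, circles for female and squares for male, and an open triangle at the worth of 3 counts for a sum of 0. Smooth muscle is highest in all libraries at 12170 to 16738 CPM, the endothelial list is lower in both GFP libraries, and the macrophage list is at 0.43 CPM in male GFP.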

How the data were processed

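Cells of 4 sorted libraries were read by SMART-Seq v4, which copies polyadenylated RNA with an oligo(dT) primer and does not mark strand. The submitters' processing notes name fastp, HISAT2 and StringTie and the build GRCm39. Which program counted, and on which annotation, is not given in the sources used here. What the authors deposited were expected counts per gene, that is, estimated counts with decimals that were not scaled between libraries, and 59.4% to 69.1% of the values were whole. Counts were rounded. Symbols, exon lengths and overlaps came from GENCODE vM21 (GRCm38) by identifier, and 76.4% of the genes matched.

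CPM used TMM factors over the 15055 genes that edgeR's filterByExpr kept at a minimum of 10 counts. Log2 ratios used a prior count of 2. Single folds had no prior count and an exact 95% binomial interval. Against 0 counts they were bounded by 3 counts in the library. Levels of single libraries have exact Poisson intervals. All cover counting error only, since PCR reads without molecular identifiers are not independent molecules.

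Genes were tested with the quasi-likelihood F test of edgeR 4.0.16 (R 4.3.3) with suspension as a block and 1 residual degree of freedom, at a Benjamini-Hochberg adjusted p of 0.05. The pairing comes from the sort, since both colours came from the same suspension. Across genes, the ratios of male over female in GFP and in tdTomato had a Pearson's r of 0.055. DESeq2 1.42.0 and limma-voom (limma 3.58.1) used the same design. Nothing says that the samples were independent beyond the 2 suspensions. Tested on simulated data for GFP against tdTomato with 50 changed genes at each fold among 15055, the edgeR test made 3 false calls and found 11 of 50 at 2-fold and 50 of 50 at 4-fold when the dispersion was 0.05. With the libraries' own dispersion of 1.47 it found 0 of 50 at 2-, 4-, 16- and 64-fold. Alternatives were other tools, scalings, filters and prior counts, no block, and each library left out, which also dropped the block.

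The 10 genes, the lists and the tests were chosen with earlier results of these data known. Beside the 10 genes, the genes open to naming were the 3 most abundant of each list by mean CPM, genes of the 7 pathway lists 2-fold apart in the same direction in both pairs, and the 3 nearest genes in pattern to the 3 most abundant of the 10. Chosen after their values were seen were Tcf4, Pdgfra, Lum, Dpt, Col1a1, Pi16, Cd68, Lyz2, C1qa, Mitf, Tyrp1, Pmel, Notch3, Sox10, Cdh1, Ednra, Pax3, and the genes named for opposite directions or for counts in 1 library. Some genes that this rule names are not reported here.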

Additional observations from a re-analysis of the deposited data

Results flagged for a closer look

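For 3 genes the ratio of GFP over tdTomato had opposite signs in the female and the male pair, with the counting interval of the fold excluding 1 in each pair. Hand2 had opposite signs too (0.49 and -0.54), but its female interval included 1 and both male counts were under 3. With 1 library of each kind this difference was not tested, and it cannot be told apart from sex or pooling. Twist1 had log2 ratios of GFP over tdTomato of -1.12 (female pair) and 3.12 (male pair), a male minus female difference of 4.25. Prrx2 had 2.01 and -0.82, a difference of -2.83. Tfap2a had 1.79 and -1.46, a difference of -3.25, and its male GFP library held 3 counts. The share of all tested genes with opposite signs and both intervals excluding 1 was not computed. Opposite directions were common, however. Counted at 2-fold, 7.75% of all tested genes were lower in the female and higher in the male pair, and 11.5% the reverse.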

How the results depend on the processing

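DESeq2 called 1109 genes for GFP against tdTomato and 120 for male against female, where edgeR called 0, and edgeR without a filter on low counts called 2 for male against female. Without the replicate block edgeR called 0 in both. Leaving out each library in turn gave 0 to 0 calls in both. The edgeR log2 fold of GFP over tdTomato changed sign in some fits of genes that no fit called. Fits that left out 1 library also dropped the suspension block, and they assume that a lone library varies like the other colour. In these fits the log2 fold ran from -1.05 to 3.14 for Twist1, -9.39 to 0.10 for Prrx1 and -0.41 to 1.79 for Prrx2. It ran from -1.46 to 1.65 for Tfap2a, -5.95 to 3.38 for Hand2 and -4.67 to 2.08 for Snai2. It kept its sign for Msx1 (0.19 to 3.71) and Twist2 (-9.73 to -6.30). For Tfap2a it was -0.043 with library totals and -0.446 with limma-voom (0.18 in the main analysis), and for Hand2 0.471 without the replicate block (-0.16 with it). The cause was not tested. Prrx1 and Twist1 turn on male GFP, without which they were at 0.10 and -1.05. In the count of genes at least 2-fold lower in the GFP library of both pairs (1), the female pair alone gave 3 and the male pair alone 3, and for higher in both (0) they gave 2 and 2, settings added after seeing the data. At 0 counts in place of 3, 0 of 2 genes were low in male GFP, against 15.9% of all such genes. At 50 CPM in place of 10 in both tdTomato libraries, 1 of 1 gene was, against 9.58%. Of 156 ratios of single pairs, 142 moved by less than their counting interval and 14 by more, and with DESeq2 size factors 2 changed sign, Prrx1 in the female pair (-0.081 to 0.044) and Snai2 in the male pair (-0.014 to 0.162). Depth limits Msx2, Tfap2b, Hand2 and Tfap2a, at under 40 counts in every library.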

Other observations

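Some genes were seen in a single library. With at least 50 counts in 1 library and at most 3 in each of the others, there were 239 genes in female GFP (2.63% of the genes at 50 counts or more there), 606 in female tdTomato cells (5.03%), 155 in male GFP cells (2.35%) and 466 in male tdTomato (4.06%). None of the 10 transcription factor genes was among them. From the lists, Dlx2, a homeodomain gene of the pharyngeal arches, had 161 counts in female GFP and 0 elsewhere. Osr2, a relative of Osr1, had 85 counts in female tdTomato and 0 elsewhere, and Ocln, a tight junction gene, had 162 and 0. Cdh2, the neural cadherin, had 99 counts in male tdTomato and 1 or 2 elsewhere.

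Pax3, a neural crest specifier, had 268 counts in female tdTomato cells and 0 in female GFP cells, against 3.34 (GFP) and 4.54 (tdTomato) in the male suspension. Its highest library was thus also that of Snai2. These values come from 1 library each.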
